A study of Rattus norvegicus with 6 samples.

Results

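The genes described here mark the ventral forebrain and the neurons that make GABA, the main inhibitory transmitter of the brain, and they were taken as 9 named genes: *Dlx1*, *Dlx2*, *Dlx5*, *Dlx6*, *Nkx2-1*, *Lhx6*, *Gad1*, *Gad2* and *Slc32a1*. Of these, 8 were listed among the 17337 gene names of the mRNA tables, and *Dlx6* was not analysed here. The mRNA was measured by polyA-selected RNA sequencing of neural progenitors grown from the cortices of Sprague Dawley rats at embryonic day 14. The cultures were untreated, were kept with 20 ng/ml of bFGF and 20 ng/ml of EGF, growth factors that keep progenitors dividing, and were harvested after the second passage. A pair of biological replicates was deposited, each with 2 technical libraries (A1 and A2 of replicate A, B1 and B2 of replicate B), so that n = 2 in every mean and no group was available for a test. The series also holds 2 Start-seq samples, which were not analysed here.

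In the embryonic forebrain, cortical projection neurons that use glutamate are born in the dorsal wall, whereas GABA neurons are born in the ventral wall, in the ganglionic eminences. The *Dlx* homeobox genes act there in pairs of neighbouring genes and switch on the program of the GABA neuron. *Nkx2-1* sets the identity of the medial ganglionic eminence and activates *Lhx6*, which directs the migration and maturation of its interneurons. *Gad1* and *Gad2* encode the enzymes that make GABA from glutamate, and *Slc32a1* encodes the transporter that loads GABA into synaptic vesicles.

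The mRNA level is given as FPKM, a fragment number divided by transcript length and by library depth, so that levels of different genes can be set side by side. The depth, taken as the coverage per 1 FPKM, was between 22.7 and 24.4 in A1, A2 and B1 and was 6.83 in B2. The deposited table of B2 also carries another run identifier than the other tables, whose meaning is not given in the sources used here. Transcripts of mesenchymal and meningeal cells were more abundant in replicate B. The 10 markers of the list summed to between 656 and 675 FPKM in the libraries of A and between 2611 and 3124 FPKM in those of B, all 10 were higher in B without overlap of the libraries, and none was at 0. The 10 neural progenitor markers were all above 1 FPKM and summed to between 21150 and 23205 FPKM in A and between 10201 and 10994 FPKM in B. Most of this sum was *Fabp7*, the gene of a fatty acid-binding protein of radial glia, and *Vim*, which encodes vimentin and is also expressed by mesenchymal cells. Without *Fabp7* the list summed to 4350 and 4648 FPKM in A and to 3681 and 5509 FPKM in B, which overlap, and without *Fabp7* and *Vim* to 1468 and 1477 FPKM in A and 1029 and 1051 FPKM in B, which do not. Of the 10, 5 were higher in A without overlap, against 32.0% of all names with a mean of at least 1 FPKM. The other 5 overlapped and none was higher in B without overlap. The median difference of the 10 between A and B was 0.13 on the scale of log2(FPKM + 1). *Fabp7* and *Hes5*, a target gene of Notch signalling, differed by more than 1 on this scale. In RNA from whole cultures, fewer cells of a type and less RNA per cell cannot be told apart, and the part of these differences in the results that follow was not tested beyond the values given.

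All 8 listed genes had an FPKM above 0 in every library, which was true of 74.5% of all gene names. Of the 8, 7 had a mean of at least 1 FPKM, against 60.5% of all names. The order of the mean levels ran from the transcription factors of progenitors and young neurons down to the genes of GABA synthesis and release, with *Lhx6* at the bottom. No other listed gene overlapped any of the 8 in the rn6 annotation.

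**Figure D1:**
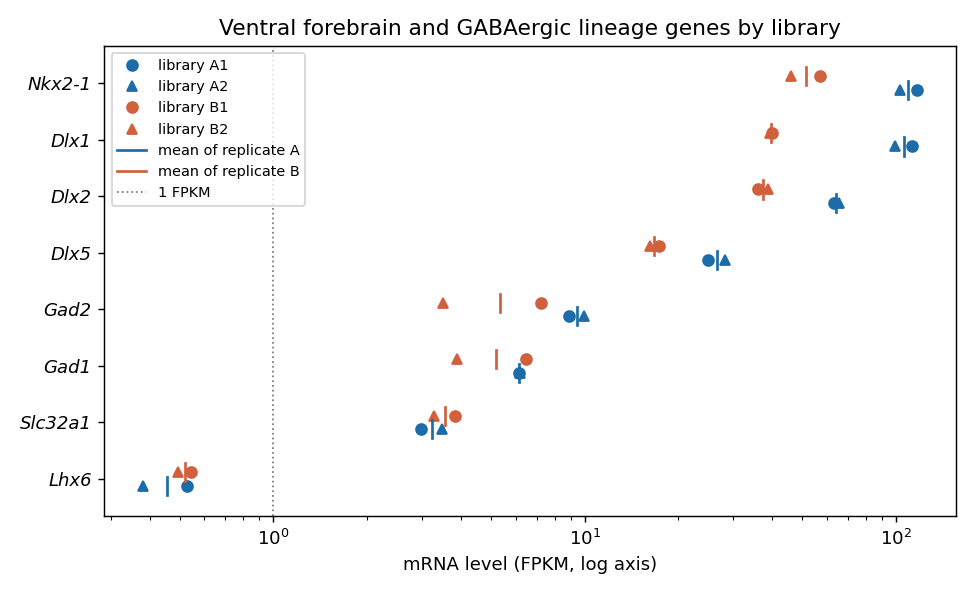
mRNA level of the 8 listed genes in each library on a log axis of FPKM, with circles for the first and triangles for the second technical library and a short line at the mean of each biological replicate. *Nkx2-1*, *Dlx1*, *Dlx2*, *Dlx5* and *Gad2* were higher in both libraries of A (blue) than in both of B (orange), *Gad1* and *Slc32a1* overlapped, and *Lhx6* lay below 1 FPKM in every library.

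*Nkx2-1*, the homeobox gene of the medial ganglionic eminence, lies on chromosome 6 of rn6 (77418096 to 77421286, minus strand). It had 117 FPKM in A1, 103 FPKM in A2, 57.1 FPKM in B1 and 45.9 FPKM in B2. Both libraries of replicate A were above both of replicate B, and the mean was 80.5 ± 41.1 FPKM (SD, n = 2), the highest of the 8 genes and rank 1343 among all gene names. The RefSeq promoter window of *Nkx2-1* starts from a site that lies 1085 bases inside the 5′ end of its annotated gene in GRCr8, so that only 30 bases are shown, at chr6:79735020-79735049 on the minus strand. They hold, in capitals, a CCAAT box and the complement of a homeodomain core, which overlap.
Nkx2-1: ctccactcaagCCAATTAaggcggactcgg

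*Lhx6*, the LIM homeobox gene that acts downstream of *Nkx2-1* in interneurons, lies on chromosome 3 (15409760 to 15433315, minus strand). Its level was 0.528 FPKM in A1, 0.381 FPKM in A2, 0.544 FPKM in B1 and 0.495 FPKM in B2. The libraries of A and B overlapped around a mean of 0.487 ± 0.046 FPKM (SD, n = 2), which is rank 11154. The reads behind these values were a mean coverage per base of 12.8 and 8.66 in A1 and A2 and of 13.3 and 3.39 in B1 and B2, so that *Lhx6* was detected in each library but at a low level. The FPKM of *Nkx2-1* was 221 and 269 times that of *Lhx6* in A1 and A2, and 105 and 92.7 times in B1 and B2.

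The *Dlx* genes lay between 16.2 and 112 FPKM. *Dlx1*, a distal-less homeobox gene, lies on chromosome 3 (58164931 to 58169521, plus strand), and *Dlx2*, its paralogue, on the same chromosome (58180088 to 58181971, minus strand), so that they face each other with 10566 bases between them. *Dlx1* had 112 FPKM in A1, 99.2 FPKM in A2, 39.9 FPKM in B1 and 39.2 FPKM in B2. These values form 2 close pairs with a wide gap between A and B, and the mean was 72.7 ± 46.9 FPKM (SD, n = 2), at rank 1499. For *Dlx2* the libraries gave 63.1 FPKM in A1, 65.3 FPKM in A2, 36.0 FPKM in B1 and 38.9 FPKM in B2, a mean of 50.8 ± 18.9 FPKM (SD, n = 2). Here too the libraries of A were above those of B. *Dlx5*, which belongs to the other *Dlx* pair of the forebrain, lies on chromosome 4 (32387741 to 32392007, minus strand). It had 24.9 FPKM in A1, 28.3 FPKM in A2, 17.3 FPKM in B1 and 16.2 FPKM in B2, again without overlap, and a mean of 21.7 ± 6.98 FPKM (SD, n = 2). *Dlx3* and *Dlx4*, paralogues known from other tissues and looked up after the values were seen, did not exceed 0.033 FPKM in any library.

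The bases around the start of *Dlx1* are shown because it had the largest difference between the replicates among the 8 genes. The window runs from 250 bases before the RefSeq start to 30 bases after it, at chr3:76763614-76763893 of GRCr8 on the plus strand, and capitals mark a GC box just after the start.
Dlx1: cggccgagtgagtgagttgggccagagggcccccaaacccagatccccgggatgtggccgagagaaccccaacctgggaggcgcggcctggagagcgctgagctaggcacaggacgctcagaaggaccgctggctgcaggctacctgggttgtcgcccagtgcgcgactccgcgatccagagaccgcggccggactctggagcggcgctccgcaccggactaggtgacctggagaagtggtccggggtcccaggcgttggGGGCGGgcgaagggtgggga

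*Gad2*, which encodes the GABA-synthesizing enzyme GAD65 found at nerve terminals, lies on chromosome 17 (89171576 to 89234768, plus strand). It had 8.92 FPKM in A1, 9.94 FPKM in A2, 7.21 FPKM in B1 and 3.50 FPKM in B2, a mean of 7.39 ± 2.88 (SD, n = 2). The libraries of A were above those of B, but B1 lay closer to A1 than to B2. *Gad1*, which encodes GAD67, the other GABA-synthesizing enzyme, found throughout the cell, lies on chromosome 3 (56861440 to 56902139, plus strand). Its 6.13 FPKM in A1, 6.21 FPKM in A2 and 6.47 FPKM in B1 were close to each other, and 3.88 FPKM in B2 was below all of them. Its mean was 5.67 ± 0.70 FPKM (SD, n = 2), and A and B overlapped. *Slc32a1*, the gene of the vesicular GABA transporter, lies on chromosome 3 (155103150 to 155107815, plus strand). It had 2.97 FPKM in A1, 3.47 FPKM in A2, 3.82 FPKM in B1 and 3.27 FPKM in B2, a mean of 3.38 ± 0.23 (SD, n = 2), and A and B overlapped.

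The windows of *Gad2* (chr17:89671468-89671747) and *Slc32a1* (chr3:167686995-167687274), both on the plus strand of GRCr8, cover the same positions as that of *Dlx1* and are shown as a gene whose replicates did not overlap and a gene whose replicates did. Capitals mark CCAAT boxes and GC boxes on either strand.
Gad2: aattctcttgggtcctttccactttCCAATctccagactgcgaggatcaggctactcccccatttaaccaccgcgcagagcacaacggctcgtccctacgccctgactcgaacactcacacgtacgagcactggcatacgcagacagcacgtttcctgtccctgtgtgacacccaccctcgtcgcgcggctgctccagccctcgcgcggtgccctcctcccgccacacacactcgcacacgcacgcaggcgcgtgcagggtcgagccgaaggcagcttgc
Slc32a1: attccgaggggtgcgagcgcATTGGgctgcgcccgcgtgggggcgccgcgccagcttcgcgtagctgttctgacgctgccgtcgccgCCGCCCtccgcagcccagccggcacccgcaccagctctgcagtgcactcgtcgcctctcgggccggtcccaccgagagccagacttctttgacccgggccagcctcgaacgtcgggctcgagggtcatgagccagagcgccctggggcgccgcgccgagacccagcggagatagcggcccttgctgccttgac

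Several kinds of short motif were searched on both strands of the RefSeq promoter windows, 250 bases before to 50 bases after a start, which were given for 6 of the 9 genes. The homeodomain core TAATT was found in the window of *Nkx2-1* alone among the 6, and in 28.5% of all 33365 distinct windows. The TATA box TATAAA was found in that of *Gad1* and in 14.2% of all. The CCAAT box was found in those of *Gad2*, *Nkx2-1* and *Slc32a1* and in 37.5% of all, and the GC box GGGCGG in those of *Dlx1*, *Gad1*, *Lhx6* and *Slc32a1* and in 33.1% of all. The windows of *Gad1*, *Lhx6* and *Nkx2-1* start from sites 192, 258 and 1085 bases inside the annotated gene. The G and C content of the 6 windows was 54.0% for *Nkx2-1* and between 63.7% and 73.7% for the others, against a median of 51.7% over all windows. Among the others, those of *Dlx1*, *Lhx6* and *Slc32a1* exceeded 70%. These matches describe the letters of the windows and not the binding of a factor.

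In the order of the mean levels, some neighbours were separated in all libraries and others were not. *Nkx2-1* was above *Dlx1* and *Dlx1* above *Dlx2* in each of the 4 libraries, while the lowest library of the higher gene was below the highest library of the lower gene in both pairs, so that their order held within libraries and not across them. *Dlx2* was separated from *Dlx5*, with 36.0 FPKM as its lowest and 28.3 FPKM as the highest value of *Dlx5*. *Dlx5* was likewise separated from *Gad2*. *Gad2* and *Gad1* were not separated, and their order was turned in B2. *Gad1* was above *Slc32a1* by a narrow margin, 3.88 against 3.82 FPKM between the nearest libraries, and *Slc32a1* was well above *Lhx6*.

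The only comparison that the design holds is that between the 2 biological replicates. With a mean of at least 1 FPKM, 5 of 7 genes were higher in A than in B without overlap of the libraries, against 32.0% of the 10481 gene names at this level. None was higher in B without overlap, against 28.1% of all. A log2 difference of at least 1 on the scale of log2(FPKM + 1), together with no overlap, was reached by *Dlx1* and *Nkx2-1*, 2 of 7, both higher in A, where 1.57% of all names were called, and by none in the direction of B, where 4.58% were called. The median difference of the 7 genes was 0.76 on this scale, and that of all 10481 names was 0.03. With 1 culture on each side no test of these differences was possible. With a library left out fewer values can overlap. Without B2, 5 of the 7 were higher in A without overlap, against 43.8% of all names, *Gad1* and *Slc32a1* were then higher in B, against 40.3%, and *Dlx1* was the only one of the 7 past the limit, where 1.81% of all names were called higher in A. Without A2, *Slc32a1* was higher in B without overlap, against 35.2% of all names. Without B1, *Gad1* joined the genes higher in A, against 47.4%.

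*Dlx1* differed by 1.39 on the log2(FPKM + 1) scale, with a range from 1.293 to 1.496 over the 4 pairs of an A and a B library, and its mean FPKM was 2.67-fold higher in A. The distance between its technical libraries was 0.18 in A and 0.02 in B. *Nkx2-1* differed by 1.08, with a range from 0.83 to 1.33, and was 2.13-fold higher in A. Without B2 its difference was 0.93 and without A1 it was 0.99, both below the limit. *Dlx2* differed by 0.76 with a range from 0.68 to 0.84, and *Dlx5* by 0.64 with a range from 0.50 to 0.77. The distances between technical libraries hold no variation between cultures, for which 1 culture on each side gives no measure.

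Among the genes of GABA synthesis and transport, *Gad2* differed by 0.78 in the direction of A, about as much as *Dlx2*. The range over its library pairs ran from 0.27 to 1.28, and the technical libraries of B were 0.87 apart. Without B2 the difference of *Gad2* was 0.34. *Gad1* differed by 0.25 with a range from -0.07 to 0.56, and by -0.06 without B2. *Slc32a1* differed by -0.11 with a range from -0.28 to 0.07, so that its sign depended on the libraries chosen. *Lhx6* differed by -0.07 with a range from -0.16 to 0.03.

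**Figure D2:**
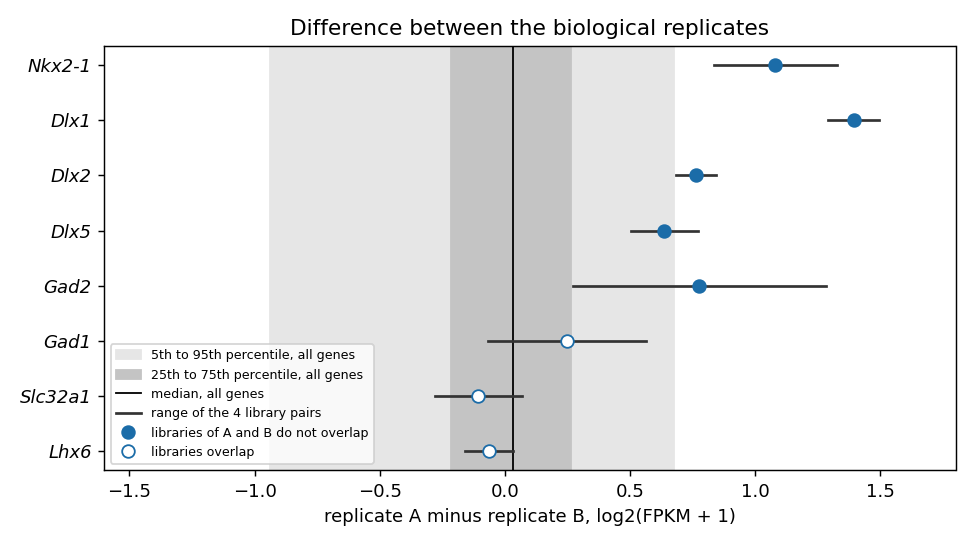
Difference of each gene between replicates A and B on the log2(FPKM + 1) scale (points), with the range over the 4 pairs of an A and a B library (lines), and grey bands for all 10481 gene names with a mean of at least 1 FPKM. The points of *Nkx2-1*, *Dlx1*, *Dlx2* and *Gad2* lie above the upper end of the wide band at 0.67, and that of *Dlx5* at 0.64 lies just inside it.

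The difference between the replicates was also taken relative to *Sox2*, whose product maintains neural progenitors, a choice made after the values were seen. *Sox2* had 558 and 592 FPKM in A1 and A2 and 406 and 356 FPKM in B1 and B2. Per 100 FPKM of *Sox2*, *Dlx1* had 20.2 and 16.8 FPKM in A1 and A2 and 9.83 and 11.0 FPKM in B1 and B2, still without overlap. The same ratio was 20.9, 17.3, 14.1 and 12.9 for *Nkx2-1*, and was likewise higher in A. For *Dlx2* it was 11.3 and 11.0 in A and 8.87 and 10.9 in B, which did not overlap but came close. *Dlx5*, *Gad1* and *Gad2* overlapped on this scale. *Slc32a1*, at 0.532 and 0.587 in A and 0.941 and 0.918 in B, and *Lhx6* were higher in B relative to *Sox2*. With the log2(FPKM + 1) difference of *Sox2*, 0.59, subtracted from that of each gene, the median difference of the 7 genes was 0.17. The mesenchymal markers had the opposite direction in absolute level, with a median difference of -1.94, and whether they account for the differences of the *Dlx* genes and *Nkx2-1* was not tested.

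Ratios between paralogues within a library do not depend on how the library was scaled. The FPKM of *Dlx1* over that of *Dlx2* was 1.78 and 1.52 in A1 and A2 and 1.11 and 1.01 in B1 and B2, so that *Dlx1* exceeded *Dlx2* in each library and by more in replicate A. The ratio of *Dlx2* to *Dlx5*, genes of different pairs, was 2.53, 2.31, 2.08 and 2.40 in A1, A2, B1 and B2, and here A and B overlapped. *Gad2* over *Gad1* was 1.46 and 1.60 in A and 1.11 and 0.90 in B, without overlap. The FPKM of *Dlx1*, *Dlx2* and *Dlx5* summed to 200.5 and 193 in A1 and A2 and to 93.2 and 94.3 in B1 and B2. *Gad1*, *Gad2* and *Slc32a1* summed to 18.0 and 19.6 in A and to 17.5 and 10.6 in B. The former sum was thus 11.1 and 9.83 times the latter in A, and 5.32 and 8.86 times in B.

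**Figure D3:**
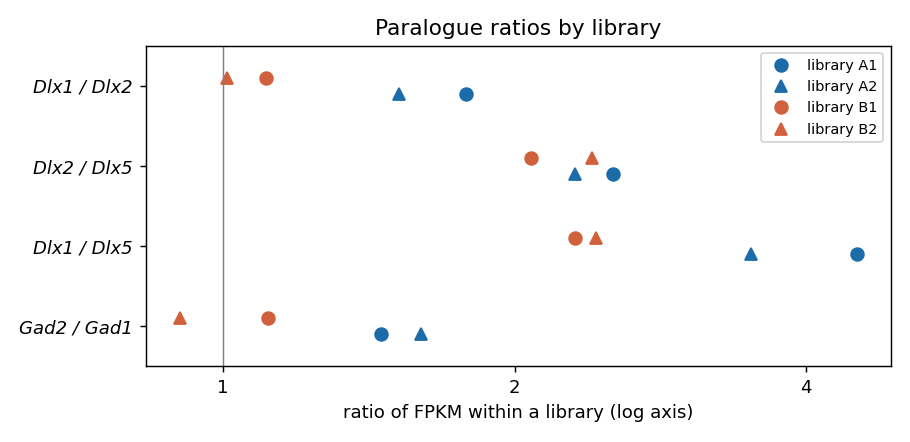
Ratio of the FPKM of pairs of *Dlx* genes and of *Gad2* to *Gad1* within each library, on a log axis, with blue for the libraries of A and orange for those of B. The ratios with *Dlx1* as numerator and that of *Gad2* to *Gad1* were higher in A without overlap, and *Dlx2* to *Dlx5* overlapped between 2.08 and 2.53.

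Other transcription factors of the ventral forebrain were taken from a list of 27 genes, all of which were in the tables. A mean of at least 1 FPKM was found for 21 of them (77.8%), against 60.5% of all names. Of these 21, 12 were higher in A without overlap, 4 were higher in B and 5 overlapped, and their median difference was 0.35. Of all names at this level, 32.0% were higher in A without overlap and 28.1% in B. The counts of the lists that follow stand against the same shares. *Nr2f1*, a nuclear receptor gene of the caudal ventral forebrain and cortex, had the highest level, with 326 and 327 FPKM in A1 and A2 and 237 and 207 FPKM in B1 and B2. *Meis2*, a homeobox gene of the lateral ganglionic eminence, had 90.0 and 89.6 FPKM in A and 78.4 and 62.8 FPKM in B, a mean of 80.2 ± 13.6 FPKM (SD, n = 2), and was also higher in A without overlap. Past the limit of 1 on the log2 scale were *Gsx2*, the patterning gene of the lateral ganglionic eminence, with 5.12 and 5.38 FPKM in A and 1.51 and 2.79 FPKM in B, and *Ebf1*, known from striatal neurons and also from mesenchymal cells, with 2.07 and 2.31 FPKM in A and 5.71 and 6.45 FPKM in B. The difference of *Gsx2* was 1.02, with a range from 0.69 to 1.34 over the library pairs.

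Genes that handle GABA or its precursor, or receive it, were taken from a list of 24. Of the 24, 17 (70.8%) had a mean of at least 1 FPKM. Of these, 9 were higher in A without overlap, 4 were higher in B and 4 overlapped, with a median difference of 0.33. *Gabbr1*, which encodes a subunit of the metabotropic GABA receptor, had 333 and 293 FPKM in A and 118 and 125 FPKM in B, past the limit of 1. *Glul*, the gene of glutamine synthetase of glia, had 78.6 and 86.2 FPKM in A and 182 and 225 FPKM in B, past the limit in the other direction. *Slc6a13*, a GABA transporter gene known from the meninges, was also past it, with 9.74 and 8.29 FPKM in A and 16.3 and 44.1 FPKM in B. Its difference was -1.48, with a range from -2.28 to -0.69 over the library pairs, so that not every pair reached the limit.

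Markers of the migration and the subtypes of interneurons were taken from a list of 20 genes, of which 19 were in the tables. Of the 19, 13 (68.4%) averaged 1 FPKM or more. Here 7 of the 13 were higher in B without overlap, 4 were higher in A and 2 overlapped, with a median difference of -0.59. These counts include *Htr3a*, which reached a mean of 1 FPKM through replicate A alone, with 0.707 FPKM in B. They also include *Nrp2*, named after its values were seen, which reached it through replicate B alone, with 0.612 FPKM in A. *Cxcr4*, the chemokine receptor gene that guides migrating interneurons, had 102 and 111 FPKM in A and 70.6 and 83.2 FPKM in B. *Maf*, a transcription factor gene of interneurons that other cell types share, had 27.2 and 29.6 FPKM in A and 36.5 and 67.8 FPKM in B. The neuropeptide genes *Sst* and *Npy* had means of 29.4 ± 2.65 and 22.5 ± 3.32 FPKM (SD, n = 2), and their libraries overlapped between A and B. *Htr3a*, which encodes a serotonin receptor subunit of caudally derived interneurons, had 5.82 and 6.58 FPKM in A and 0.847 and 0.566 FPKM in B. *Calb1*, the gene of the calcium-binding protein calbindin, had 3.48 and 4.17 FPKM in A and 6.99 and 11.0 FPKM in B. *Htr3a*, with both libraries of B below 1 FPKM, and *Calb1* were the genes of the list past the limit, 1 in each direction. The difference of *Calb1* was -1.02, with a range from -1.42 to -0.63 over the library pairs.

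The labelled tissue is cortex, so the dorsal counterpart of these genes was examined through a list of 16 genes, of which 13 were in the tables. Of the 13, 5 (38.5%) had a mean of at least 1 FPKM, against 60.5% of all names, while 8 were below it. *Lhx2* and *Pax6*, which act in progenitors of the dorsal wall and other regions, had 54.8 ± 14.1 and 33.9 ± 6.01 FPKM (SD, n = 2), and *Emx2*, a dorsal patterning gene, had 13.2 ± 1.38 FPKM (SD, n = 2). *Bcl11b*, which is active in deep-layer projection neurons and in striatal neurons, had 2.08 and 2.09 FPKM in A, 1.15 FPKM in B1 and 0.0518 FPKM in B2. It was the only gene of the list past the limit of 1. Its difference was 1.04, with a range from 0.52 to 1.55 over the library pairs, so that not every pair reached the limit. Among the defining genes of cortical glutamatergic neurons, *Tbr1* did not exceed 0.345 FPKM and *Slc17a7*, a vesicular glutamate transporter gene, did not exceed 0.107 FPKM in any library. These were named after their values were seen. *Emx1*, *Neurog2* and *Eomes* were not analysed here. Of the 5 genes at 1 FPKM or more, 4 were higher in A without overlap and the median difference was 0.48, but *Bcl11b* and *Fezf2*, the latter named after its values were seen, reached a mean of 1 FPKM through replicate A alone. No test of the ventral against the dorsal genes was possible.

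Neuronal transcripts were present in both replicates. The 10 markers of neurons in general all averaged 1 FPKM or more and summed to 275 and 308 FPKM in A and to 233 and 284 FPKM in B. Of these 10, 6 were higher in A without overlap, 1 was higher in B and 3 overlapped, with a median difference of 0.45. *Tubb3*, which encodes a neuronal tubulin, was the highest at 118 ± 9.88 FPKM (SD, n = 2), and its libraries overlapped. *Elavl4*, the gene of a neuronal RNA-binding protein, was past the limit, with 36.1 and 40.6 FPKM in A and 18.1 and 17.5 FPKM in B. Its difference was 1.07, with a range from 0.96 to 1.17 over the library pairs. Among the 8 genes of the oligodendrocyte lineage, which shares ventral origins with these neurons, 5 (62.5%) had a mean of at least 1 FPKM. *Olig1* had 172 and 195 FPKM in A and 523 and 237 FPKM in B, and *Pdgfra*, which mesenchymal cells also express, had 9.50 and 9.09 FPKM in A and 59.5 and 59.4 FPKM in B. The 5 endothelial and 6 microglial and blood markers all had means below 1 FPKM.

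**Figure D4:**
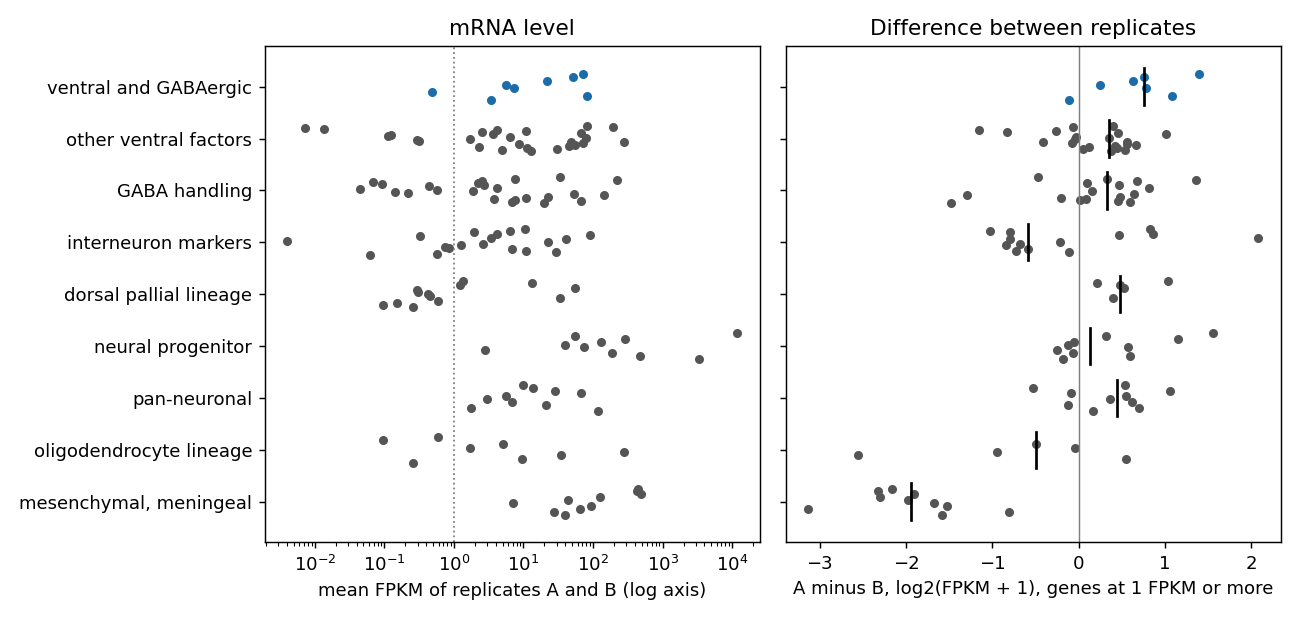
Mean FPKM of each gene of 9 lists on a log axis (left) and its difference between replicates A and B on the log2(FPKM + 1) scale for genes that averaged 1 FPKM or more (right, with a line at the median of the list), the genes described here in blue. The median was 0.76 for these, 0.35 for the other ventral factors, -0.59 for interneuron markers and -1.94 for mesenchymal and meningeal markers.

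The genes whose pattern over the 4 libraries was most like the median pattern of the 7 genes were found by the root mean square distance between profiles of log2(FPKM + 1), each centred on its own mean. The 5 nearest were *Ddit4*, *Nell1*, *Jam3*, *Ppap2b* and *Nol4*, at distances from 0.019 for *Ddit4* to 0.036 for *Nol4*. *Ddit4*, a stress-responsive inhibitor of the mTOR pathway, had 134 and 143 FPKM in A and 86.1 and 77.9 FPKM in B. Among 10474 names examined, 185 lay within a distance of 0.1, so that over 4 libraries of 2 cultures many genes share such a pattern.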

How the data were processed

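PolyA-selected RNA of cortical neural progenitors was sequenced by the authors from 2 biological replicates with 2 technical libraries each. Per the labels and the methods, reads were aligned to rn6 with STAR, and the tables have the layout of StringTie, while the methods name Rsubread and DESeq2 for FPKM. Tool versions and the use of strand are not given in the sources used here. The deposited FPKM values are scaled to transcript length and depth. The deposited TPM values sum to 1000000 in each library and were used as an alternative. The deposited coverage is an unscaled signal, the mean read depth per base, from which depth was taken as coverage per FPKM.

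Rows sharing a gene name were added up. Means are of technical libraries within a replicate and then of replicates, with the SD over n = 2. Differences are means of log2(FPKM + 1) in A minus those in B, a scale that understates the change of low genes. A gene was counted as differing at a mean of at least 1 FPKM, a difference of at least 1 and no overlap of libraries. With 1 condition there was no test, and no p-value was computed. The call rule was tested on simulated data.

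The 9 genes, the gene lists and the rules were chosen with earlier results of these data known. Named genes were the 9 genes, the 4 highest of each list, those counted as differing, and the 5 nearest in profile. Those named outside this rule are marked as such. Not every marker gene named by the rule is given singly, and some genes of the lists are not reported here. Promoter windows are from RefSeq on GRCr8, and rn6 coordinates are those of the tables. Alternatives were a pseudocount of 0.1, TPM, median-ratio scaling, other thresholds, depth weights and each library or replicate left out. Python 3.11.15, pandas 2.3.3, numpy 2.4.6 and matplotlib 3.10.9 were used.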

Additional observations from a re-analysis of the deposited data

Results flagged for a closer look

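A library far from the other 3 was looked for in 11 values: the FPKM of the 8 genes, 2 paralogue ratios and the depth. Of these, 2 had such a library, and in both it was B2, where chance gives about 1 in 20 for independent samples, which technical pairs are not. The coverage per FPKM was 6.83 in B2 against 22.7 to 24.4 in the others. *Gad1* had 3.88 FPKM in B2 against 6.13 to 6.47 FPKM in A1, A2 and B1, at a mean coverage per base of 26.5 in B2 against 141 to 158 in the others. Whether the lower depth of B2 bears on the level of *Gad1* was not tested.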

How the results depend on the processing

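For the 8 genes, 144 alternatives were computed for 20 results and the sign of a difference turned for *Gad1* and *Lhx6*, both with overlapping libraries. *Gad1*, at 0.25 as reported, was -0.06 without B2 and 0.56 without B1, and *Lhx6*, at -0.07 as reported, was 0.0076 without A2. The sign of the other 6 differences and of the median was kept. The causes of the changes given here were not tested. The number of genes differing between A and B, 2 as reported, was 5 at a log2 difference of at least 0.58, all higher in A, where 7.19% of all gene names were called. Leaving out 1 library at a time it ranged from 1 to 3, while 1.49% to 2.08% of all names were called higher in A. *Nkx2-1* was lost without A1 or without B2, and *Gad2* was added without B1. The median difference of the 7 genes, 0.76 as reported, ranged from 0.59 (without B2) to 0.79 with 1 library left out. Relative to other genes, alternatives chosen after the data were seen, it was 0.17 against *Sox2*, 0.63 against the median of the neural progenitor list and 0.31 against that of the pan-neuronal list. The difference of *Gad2*, 0.78 as reported, was 0.34 without B2 and 1.21 without B1, and that of *Lhx6* was -0.17 with a pseudocount of 0.1. Leaving out replicate A or B replaces each mean level by that of the other replicate, as given by the libraries. No paired analysis was possible because the libraries carry technical numbers within each culture and no test was made. What the data can show is limited by 1 culture on each side of the comparison and by the depth of B2, in which *Lhx6* had a mean coverage per base of 3.39.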
